A study of Macaca fascicularis with 2 samples.

Results

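The muscarinic acetylcholine receptors *CHRM1* to *CHRM5* and *ACHE*, the gene of acetylcholinesterase, were examined in single cells of the nucleus pulposus (NP) and the articular cartilage (AC) of the cynomolgus monkey. Of these 6 genes, 5 were among the 21371 genes counted, and *CHRM1* was not. The cells came from wild-type male monkeys that were 3 years old, and notochordal cells (NCs), which descend from the embryonic notochord, were among them. Cells of 3 tissue samples, as the labels give them, were marked with 4 antibody tags (A951 to A954), sorted as live cells and sequenced as 1 pooled library by TAS-seq, which marks the cDNA of each cell with a bead barcode before it is amplified. In the study, an NP and an AC sample came from the same monkey and another AC sample from a different monkey. No source used here pairs a tag with a tissue, so each value is given by tag and not by tissue. NCs were defined by measured reads, as cells with 5 or more reads of *KRT19*, a keratin of notochordal cells, and 5 or more reads of *TBXT*, the notochord transcription factor brachyury. The gene family was chosen with results of these cells known, so the difference of *CHRM2* and *CHRM3* between NCs and the other cells is a description without a test.

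Acetylcholine acts on muscarinic receptors, which are coupled to G proteins, and on nicotinic receptors, which are ion channels. *CHRM1*, *CHRM3* and *CHRM5* encode receptors that act through Gq proteins, phospholipase C and the release of calcium from internal stores, whereas the receptors of *CHRM2* and *CHRM4* act through Gi proteins, which inhibit adenylyl cyclase. Acetylcholinesterase ends the signal by cleaving acetylcholine. The M2 receptor is best known from the heart, where it slows the beat, and the M3 receptor from smooth muscle and glands, where it drives contraction and secretion.

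The first matrix held 5674 cells with a single tag, of which 5653 had 200 to 9000 genes and under 5% mitochondrial reads. The median cell held 198432 reads of 3827 genes. NCs numbered 310 of 5653 cells, a share of 5.48%. They made up 67 of 995 cells with tag A951, 236 of 1125 cells with tag A952, 5 of 1377 cells with tag A953 and 2 of 2156 cells with tag A954, so nearly all values for NCs rest on A951 and A952. Notochordal genes that the definition did not use were also higher in these cells, as *CDH2* (N-cadherin), *NCAM1* (neural cell adhesion molecule), *C3orf49* and *NRN1* (neuritin) had log2 ratios of reads per 1000000 reads, NCs to other cells, of 6.68, 4.33, 7.41 and 6.97. The study named *C3orf49* and *NRN1* as NC markers partly from these cells, so they are no independent check. Of all genes compared, 25.3% were higher in NCs by 2-fold or more. A second deposited matrix, which the sample labels do not list, held 1347 cells within the same limits, of which 138 were NCs by the same definition. There the NCs had tags A953 (62 cells) and A954 (76 cells) and there were none among the cells with A951 or A952, so a tag does not mark the same tissue in both matrices. The log2 ratios of *CDH2*, *NCAM1*, *C3orf49* and *NRN1* in the second matrix were 3.24, 3.31, 7.23 and 2.76. The matrices shared 15 cell barcode numbers.

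*CHRM2*, the gene of the M2 receptor, had reads in 93 of 310 NCs, a share of 30% (95% exact binomial interval 24.95 to 35.4). The share was 18 of 67 NCs with tag A951 (26.9%) and 71 of 236 with tag A952 (30.1%), and 3 of 5 and 1 of 2 NCs with tags A953 and A954 had a read. The intervals of A951 (16.8 to 39.1) and A952 (24.3 to 36.4) overlapped almost wholly. The positive NCs had a median of 12 *CHRM2* reads and up to 290, and 8 of them had a single read. Pooled over NCs the level was 54.8 reads per 1000000 reads (rpm), from 3618 reads, and it was 51.4 rpm in A951 and 54.2 rpm in A952. The shares and levels of the tags were thus close, but 1 cell held 32.1% of the reads of A951. All intervals given here cover counting error only, since amplified reads are not independent molecules and cells of 1 library are not replicates.

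Among the 5343 other cells, 40 had a *CHRM2* read (0.749%, 0.535 to 1.02). The share was 6 of 928 cells in A951, 10 of 889 in A952, 10 of 1372 in A953 and 14 of 2154 in A954, and thus low in each tag. The level was 0.344 rpm, and 24 of the 40 positive cells had a single read. The NCs were not the deeper cells, as they had a median of 186370 reads per cell against 199072 in the other cells. With each cell thinned to 50000 reads, the expected shares were 25.8% of NCs and 0.321% of the other cells, after 11 NCs and 196 other cells with fewer reads were left out. The log2 ratio of pooled rpm, NCs to other cells, was 7.31 for *CHRM2*, a 159-fold difference.

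*CHRM3*, the gene of the M3 receptor, had reads in 89 of 310 NCs, a share of 28.7% (23.7 to 34.1). By tag, 18 of 67 NCs were positive in A951 (26.9%), 69 of 236 in A952 (29.2%), 2 of 5 in A953 and 0 of 2 in A954, where 2 cells put no useful limit on the share. The positive NCs had a median of 14 *CHRM3* reads and up to 253, and 7 had a single read. The shares of A951 and A952 again lay within each other's intervals. The pooled level was 46.4 rpm from 3063 reads, with 54.7 rpm in A951 and 46.0 rpm in A952. A single cell held 37.9% of the *CHRM3* reads of the NCs with tag A951, so the level of that tag depends on it. Of the other cells, 29 of 5343 had a *CHRM3* read (0.543%, 0.364 to 0.779) at a level of 0.210 rpm, and 24 of these 29 cells had 1 read. The expected shares at 50000 reads were 24.2% of NCs and 0.179% of the other cells. The log2 ratio was 7.79, a 221-fold difference.

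The same ratio was computed for all genes. Among the 13724 genes detected in at least 1% of NCs or of the other cells, 25.3% were higher in NCs by 2-fold or more and 13.5% were lower, with a median log2 ratio of 0.27. *CHRM3* had rank 6 and *CHRM2* rank 16 by log2 ratio, which describes the choice of the genes and is read no further. They were the only ones of the 5 listed genes to pass this filter, and they could pass it only through their detection in NCs.

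The second matrix gave the same picture in cells with other tags. *CHRM2* had reads in 54 of 138 NCs (39.1%, 30.9 to 47.8), namely 29 of 62 in A953 (46.8%) and 25 of 76 in A954 (32.9%), and *CHRM3* had reads in 48 of 138 (34.8%, 26.9 to 43.4), namely 18 of 62 in A953 (29.0%) and 30 of 76 in A954 (39.5%). The order of the receptors was thus opposite in these tags, but the intervals of all 4 shares overlapped. Of the 1209 other cells, 8 had a *CHRM2* read (0.662%) and 7 a *CHRM3* read (0.579%). The levels in NCs were 41.3 rpm for *CHRM2* and 39.3 rpm for *CHRM3*, with log2 ratios of 6.70 and 6.38. In this matrix 23.1% of 13474 genes were higher in NCs by 2-fold or more and 18.2% were lower, with a median log2 ratio of 0.16. Of the 3109 higher genes, 194 had fewer than 3 reads in NCs and were past 2-fold only because read sums under 3 were set to 3, and without them 21.6% were higher. No gene of the first matrix was counted as past 2-fold in this way. The NCs were the shallower cells here, with a median of 81906 reads against 127073.

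**Figure D1:**
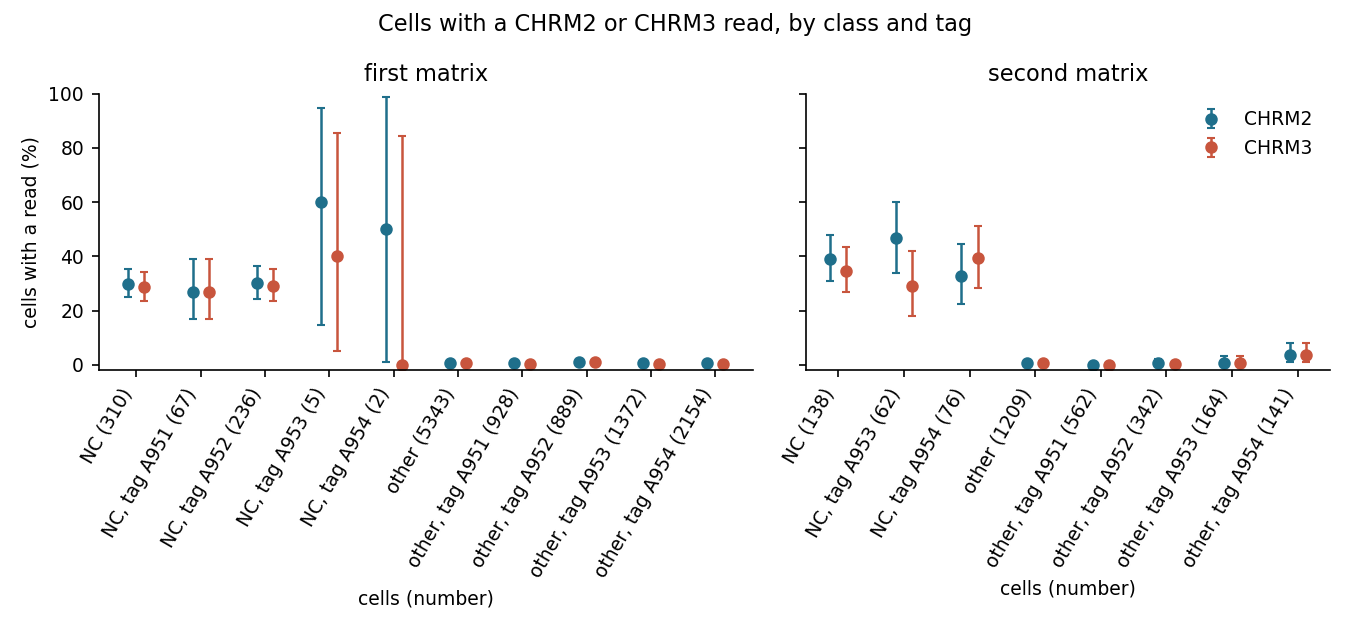
Share of cells with at least 1 read of *CHRM2* or *CHRM3* (y axis, %) in notochordal (NC) and other cells, over all tags and by tag, in the first (left) and the second matrix (right), with the number of cells in parentheses and bars for 95% exact binomial intervals. In every tag with more than 5 NCs the shares lie between 26.9% and 46.8%, and in the other cells the highest is 3.55%.

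The reads of *CHRM2* and *CHRM3* outside the NCs were concentrated in cells that carried 1 of the NC markers. Of the 7 other cells with 5 or more *CHRM2* reads, 5 also had 5 or more reads of *KRT19* or *TBXT*, and these 5 cells held 369 of the 439 *CHRM2* reads (84.1%). All 4 other cells with 5 or more *CHRM3* reads had a marker at 5 reads or more, and they held 242 of 268 reads (90.3%). One of them, with tag A951, had 170 reads. The log2 ratio within a tag moved with these few cells. For *CHRM2* it was 9.74 in A951, where the other cells had 12 reads, and 4.68 in A952, where they had 381. For *CHRM3* it was 5.98 in A951 and 6.73 in A952. The corresponding values of the second matrix were 7.03 in A953 and 3.86 in A954 for *CHRM2*, and 8.29 and 3.68 for *CHRM3*. When cells with 5 reads of either marker were counted as NCs, the ratios over all tags of the first matrix were 9.94 for *CHRM2* and 10.95 for *CHRM3*.

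Detection was also counted in classes of cells by their reads of the markers. In cells with no read of *KRT19* and *TBXT*, 18 of 4321 had a *CHRM2* read (0.417%) and 17 a *CHRM3* read (0.393%). In cells with both markers below 5 reads but at least 1 read, the shares were 1.39% and 0.747% of 937 cells. In the 68 cells with 5 or more reads of 1 marker and none of the other, they were 8.82% and 7.35%. The classes on either side of the threshold held few cells. Just outside it, 17 cells had 5 or more reads of 1 marker and 1 to 4 of the other, and 3 of them had a *CHRM2* read (17.6%, 3.80 to 43.4) and 0 a *CHRM3* read. Just inside it, 13 NCs had 5 to 9 reads of their lower marker, and 3 had a *CHRM2* read (23.1%, 5.04 to 53.8) and 2 a *CHRM3* read (15.4%). Most NCs, 297 of 310, had 10 or more reads of both markers, and there the shares were 30.3% and 29.3%. Of the 13 cells just outside the threshold in the second matrix, 5 had a *CHRM2* and 2 a *CHRM3* read, and of the 25 just inside, 8 and 4.

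**Figure D2:**
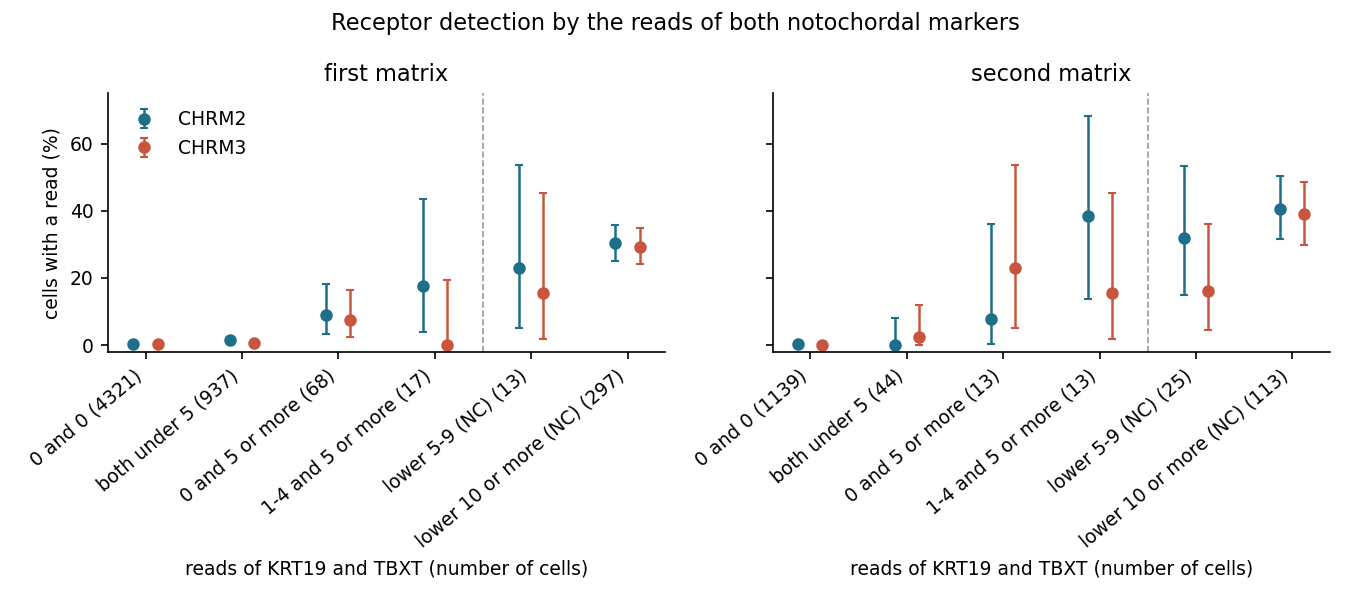
Share of cells with a *CHRM2* or *CHRM3* read (y axis, %) in 6 classes of cells by their reads of *KRT19* and *TBXT* (x axis, with the number of cells), in the first (left) and the second matrix (right). Bars are 95% exact binomial intervals and the dashed line is the threshold of the definition of NCs. In the first matrix the shares are 0.417% and 0.393% in cells without marker reads and 30.3% and 29.3% in cells with 10 or more reads of both, and the small classes between them, of 13 to 68 cells, have wide intervals.

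The receptors were then compared within single NCs. In the first matrix, 25 NCs had reads of both *CHRM2* and *CHRM3* (8.06%, 5.29 to 11.7), 68 had *CHRM2* alone, 64 had *CHRM3* alone and 153 had neither. At least 1 of the receptors was detected in 157 NCs (50.6%, 44.9 to 56.3). The product of the shares, which is the number if detection of each were unrelated to the other, came to 26.7 cells with both. The observed number was 0.936 times this product. Of the *CHRM3*-positive NCs 28.1% had a *CHRM2* read, and of the *CHRM3*-negative NCs 30.8% had one. Within these NCs, detection of a receptor thus told little about detection of the other. Of the 138 NCs of the second matrix, 20 had both (14.5%, 9.08 to 21.5) against 18.8 from the product, 34 had *CHRM2* alone, 28 had *CHRM3* alone and 56 had neither. At least 1 receptor was detected in 82 NCs (59.4%). Among the 5343 other cells of the first matrix, 2 had both receptors against 0.217 from the product. Among the 1209 other cells of the second matrix, 2 had both against 0.0463. These numbers lay above the product, but each rests on 2 cells.

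Co-detection was set beside the product by tag and by depth, where the numbers are small. With tag A951, 4 of 67 NCs had both against 4.84 from the product, and with tag A952, 20 of 236 against 20.8. The 103 NCs with the fewest reads (31788 to 136875) had 3 with both against 3.5, the 103 in the middle had 9 against 11.2, and the 104 with the most reads (247217 to 867991) had 13 against 13.7. The share with at least 1 receptor was 34.0%, 57.3% and 60.6% in these groups. The 3 groups of 46 NCs of the second matrix, from the fewest to the most reads, had 3 with both against 2.17, 8 against 11.2 and 9 against 7.02, and 37.0%, 82.6% and 58.7% had at least 1 receptor, so detection did not follow depth steadily there. In its middle group *CHRM2* was in 42.1% of *CHRM3*-positive and 70.4% of *CHRM3*-negative NCs. With 5 or more reads required for each receptor, 9 NCs had both against 14.5 from the product, a ratio of 0.622. The observed share of 2.90% had an interval of 1.34 to 5.44, which contains the share from the product. The same requirement in the second matrix gave 8 cells with both against 7.30.

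The levels of the receptors were also nearly unrelated between NCs. Pearson's r of log2(rpm + 1) between *CHRM2* and *CHRM3* was -0.09 over 310 NCs and 0.04 over the 138 NCs of the second matrix. Over the 25 NCs with both it was -0.02, and over the 20 of the second matrix 0.01. These values share the library and the depth of each cell and are given without a test.

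**Figure D3:**
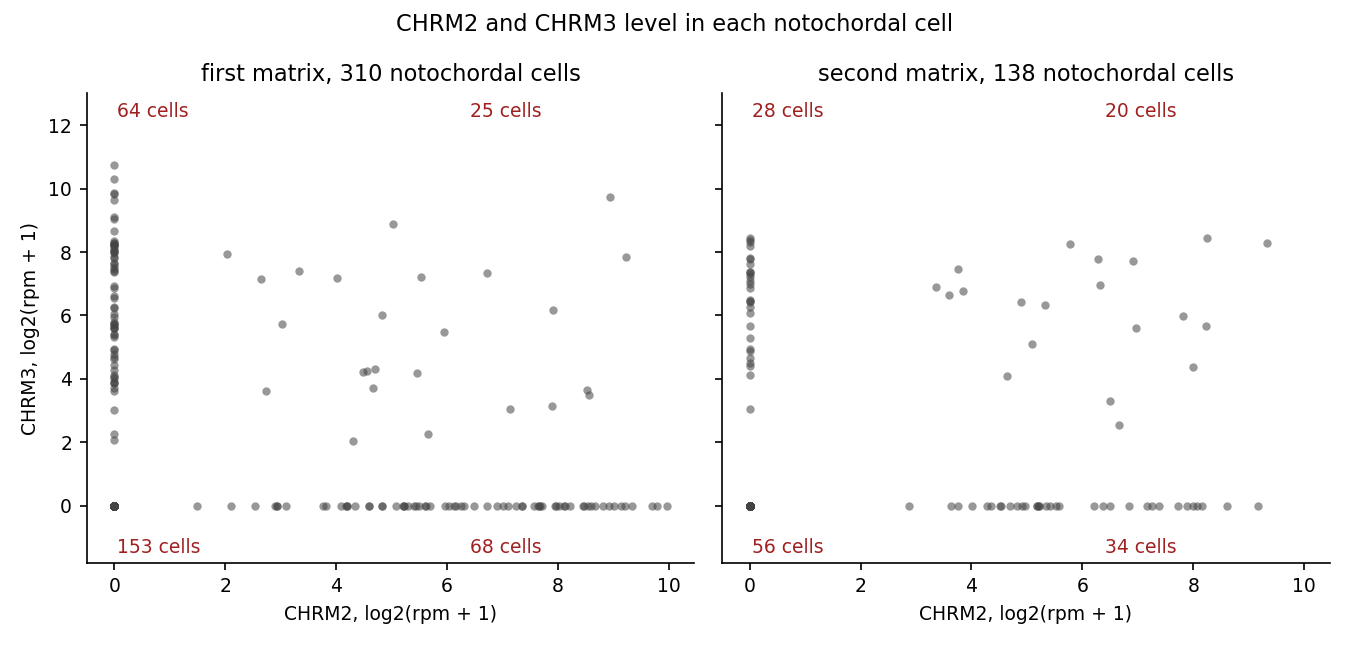
Level of *CHRM2* (x axis) and *CHRM3* (y axis) in each notochordal cell, as log2(rpm + 1), in the first (left) and the second matrix (right). Each point is a cell, points at 0 overlap, and the red numbers count the cells with neither receptor, with 1 of them and with both (25 and 20 cells). In the first matrix the highest level of each receptor is in a cell without the other, and in the second matrix the highest levels are close in cells with 1 receptor and with both.

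**Figure D4:**
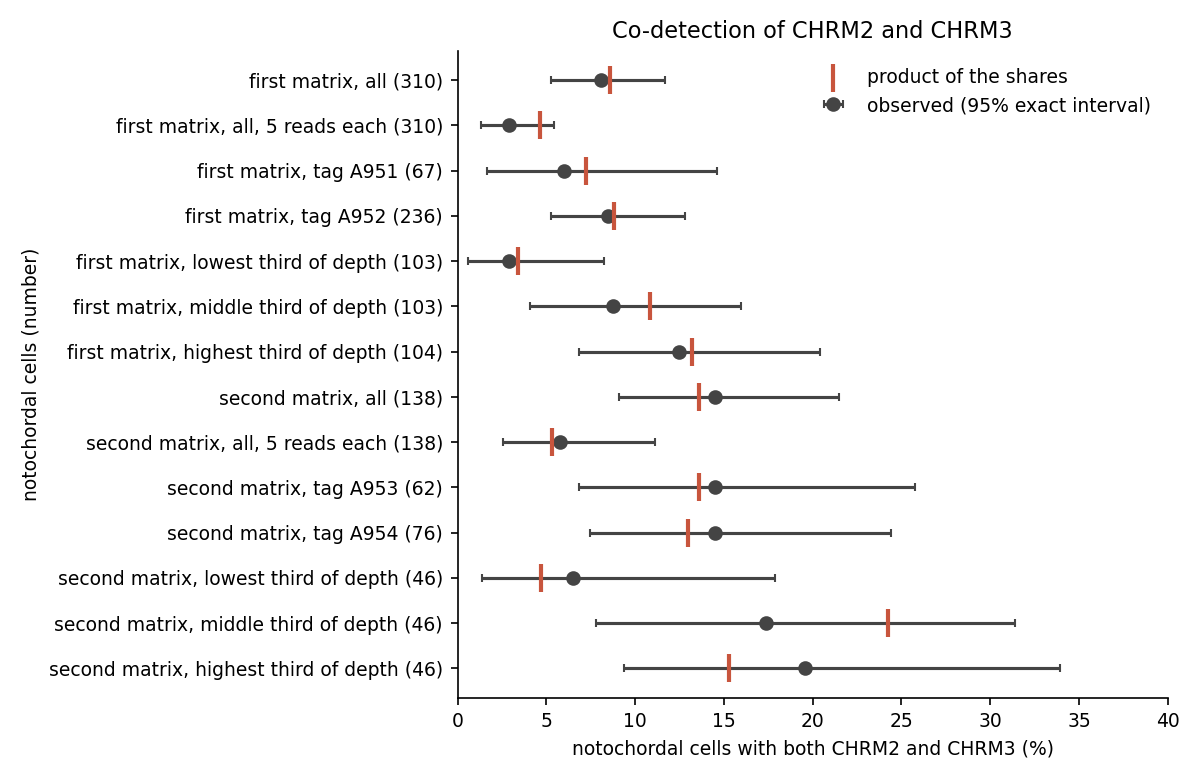
Share of notochordal cells with both *CHRM2* and *CHRM3* (x axis, %) over all cells, by tag and by depth, with the number of cells on the y axis. Points are observed shares with 95% exact binomial intervals, and red ticks are the products of the shares. Each interval contains its product, for example 5.29% to 11.7% over all 310 NCs of the first matrix.

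The other receptors of the family were at or near 0. *CHRM4*, the second receptor that acts through Gi, had no read in 310 NCs, and 8 of 5343 other cells had 1 read each (0.150%). The 0 allows a share of NCs with a read of up to 0.968% by the limit of 3 counts and 1.18% by the exact interval. It sets no limit on the share of NCs that express the gene below detection. *CHRM5*, which acts through Gq, had no read in NCs either, and 9 of 5343 other cells had 1 read each (0.168%). Neither gene had a read in the 138 NCs of the second matrix, and 2 and 1 of 1209 other cells had a single read. The 0 in those NCs allows a share with a read of up to 2.17% by the limit of 3 counts and 2.64% by the exact interval. No fold change is given for these genes, since their reads in the NCs lie under the floor of 3 reads. In a RefSeq annotation, which may be of another assembly, *CHRM4* overlaps *MDK* and *CHRM5* overlaps *AVEN* and an uncharacterized locus. Of these overlapping genes only *AVEN* was among the genes counted. The authors' counting settings allowed overlapping genes and used the largest overlap. *CHRM2* and *ACHE* overlap no other annotated gene there, and *CHRM3* overlaps an uncharacterized locus that was not among the genes counted.

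*ACHE* was rare in both classes. It had reads in 3 of 310 NCs (0.968%, 0.200 to 2.80), all with tag A952, and 1 of these cells held 73.1% of the 93 reads. No NC with another tag had a read. Of the other cells, 20 of 5343 had an *ACHE* read (0.374%, 0.229 to 0.578), namely 5 of 928 in A951, 6 of 889 in A952, 4 of 1372 in A953 and 5 of 2154 in A954. Their 411 reads were unlike the single reads of *CHRM4* and *CHRM5*, as 11 of the 20 cells had 5 or more reads and the highest had 127. The pooled level was 1.41 rpm in NCs and 0.322 rpm in the other cells, a log2 ratio of 2.13, but it rests on those 3 cells. Within A952 it was 0.89, and without A952 the NCs had no *ACHE* read. In the second matrix *ACHE* had no read in any cell within the limits.

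By clusters the same cells carried the receptors. The cells of the first matrix were clustered alone, without the other samples of the study. Of the 6 genes, *CHRM2*, *CHRM3* and *ACHE* were among the variable genes and were taken out of them. In the result, 309 of the 310 NCs fell into 1 cluster of 360 cells, which was NC-like by its markers. In this cluster 103 cells had a *CHRM2* read (28.6%, 24.0 to 33.6) and 94 a *CHRM3* read (26.1%, 21.6 to 31.0), at 54.96 and 45.4 rpm. Of the other 5 clusters, the highest *CHRM2* share was 1.81% (3 of 166 cells), in a small cluster with *IL17B* and *IBSP* among its leading genes, and the lowest 0 of 521 cells. That small cluster also had the highest *CHRM3* share outside the NC-like cluster, 1.205% (2 of 166 cells), and the highest *ACHE* share of all clusters, 2.41% (4 of 166 cells, 0.660 to 6.05), with 155 *ACHE* reads. Its median of 365456 reads per cell was the highest of the clusters, and the part of depth in its shares was not tested. Taking the NC-like cluster in place of the marker reads, the log2 ratios were 10.3 for *CHRM2* and 11.2 for *CHRM3*.

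Markers of cells in which muscarinic receptors are well known were looked at beside these results. Of 5 smooth muscle and pericyte markers, *CNN1* had no read in NCs, *DES* had a log2 ratio of -4.66 and *MYH11* of -1.18, whereas *ACTA2* and *RGS5* were higher in NCs with 3.44 and 1.49. Their summed level was 80.3 rpm in NCs and 14.8 rpm in the other cells, and *ACTA2*, a smooth muscle actin, was the most abundant. By tag it was 14.8, 34.2, 13.1 and 15.5 rpm in all cells with A951 to A954, and in the second matrix it was 19.9 rpm in NCs and 13.2 rpm in the other cells. Within NCs of the first matrix it was lower in receptor-positive cells, at 48.3 rpm in *CHRM2*-positive and 96.8 rpm in *CHRM2*-negative NCs. By *CHRM3* it was 66.4 and 86.5 rpm, and it was 102 rpm in NCs with neither receptor. Of 5 neuronal markers the summed level was 91.2 rpm in NCs and 16.01 rpm in the other cells, mostly from *RBFOX3*, a neuronal splicing factor. *RBFOX3* had log2 ratios of 2.79 and, in the second matrix, 1.42, with reads in 71.0% of NCs and 66.3% of the other cells of the first matrix. By tag the sum was 22.3, 29.8, 17.8 and 15.7 rpm, and in the second matrix 26.6 rpm in NCs and 25.4 rpm in the other cells. Within NCs of the first matrix it was 88.0 rpm in *CHRM2*-positive and 104 rpm in *CHRM3*-positive NCs against 91.5 rpm in NCs with neither. *SNAP25*, of the synaptic vesicle machinery, was at 10.7 rpm in NCs and 0.503 rpm in the other cells (log2 ratio 4.41) and *SYT1* at 3.13 and 2.49 rpm (0.33), whereas in the second matrix they were at -0.86 and -0.71. *STMN2* and *PRPH* were at 0.151 and 0.121 rpm in NCs. Of these markers *CNN1*, *DES*, *STMN2* and *PRPH* were detected in under 5% of both classes and are named to complete the lists. The summed levels of the endothelial, Schwann, immune and bone markers in NCs were 3.07, 3.00, 28.0 and 3.74 rpm, against 2.60, 2.29, 23.0 and 49.9 rpm in the other cells. The immune sum held genes that differed, as 2 of 5 were higher by 2-fold in both matrices, beside 12.9% of all genes. These were *CD3E* (2.06 and 2.57) and *LYZ* (2.87 and 2.89). *CD68* was at -0.85 and -0.55, *PTPRC* at 0.89 and -2.62 and *CD14* at 1.25 and -1.01. *LYZ* and *CD14* were detected in under 5% of both classes. The part of such cells in the receptor reads was not tested.

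The genes that make, carry and remove acetylcholine were listed next. *CHAT*, the enzyme that makes acetylcholine, and *SLC18A3*, its vesicular transporter, were under the 5% of cells required for naming and are named for their role. *CHAT* had reads in 4.19% of NCs and 4.34% of the other cells, at 0.197 and 0.194 rpm, and *SLC18A3* had no read in NCs and reads in 0.299% of the other cells. Neither thus set the NCs apart. Of 11 genes of synthesis and transport in the comparison, 3 were higher in NCs by 2-fold or more, 2 were lower and 6 lay between, with a median log2 ratio of 0.21 against 0.27 for all genes. These counts are near the 25.3% of all genes that were higher and the 13.5% that were lower. The 3 higher genes were choline transporter-like genes, *SLC44A1* (log2 ratio 2.60, detected in 80.3% of NCs), *SLC44A2* (1.64) and *SLC44A3* (1.85). Their values in the second matrix differed, as *SLC44A1* and *SLC44A3* had 1.23 and 2.00, but *SLC44A2* had -0.71. *SLC22A3*, an organic cation transporter, was at -2.33 and at -2.36 in the second matrix. For breakdown, *COLQ*, the collagen tail that anchors acetylcholinesterase, was at 2.79 and 2.31. Its detection differed little, with reads in 14.8% of NCs and 11.7% of the other cells, and in 7.25% and 8.02% in the second matrix. *BCHE*, butyrylcholinesterase, was at 0.37 and -0.41.

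Of 11 nicotinic receptor subunits in the comparison, 2 were higher by 2-fold or more and none lower, which is below the 25.3% of all genes that were higher. Those detected in 5% of a class were all rare. The most abundant in the first matrix, *CHRNE*, had reads in 8.06% of NCs and 8.31% of the other cells. In NCs of the second matrix *CHRNE* was at 2.19 rpm and *CHRNB1* at 13.2 rpm. *CHRNB3* had a log2 ratio of 1.16 in the first matrix and 0.12 in the second. *CHRNB1* had 0.64 and 2.35. In the second matrix 3 of 7 subunits were counted as higher, but only *CHRNB1* of them had 3 or more reads in NCs, where 21.6% of all genes were higher with that requirement.

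Downstream of the receptors, the Gq arm held 15 genes in the comparison, of which 5 were higher by 2-fold or more, 3 lower and 7 between, with a median log2 ratio of 0.58, where 25.3% of all genes were higher and 13.5% lower. The second matrix had 3 higher and 4 lower, where 23.1% and 18.2% of all genes were, with a median of -0.46 against 0.16 for all genes, and 2 genes were higher and 1 lower in both matrices. Of the 13211 genes in both comparisons, 12.9% were higher by 2-fold in both and 7.64% lower in both, so these counts are near those of all genes. The 2 genes higher in both were *GNA14*, a G protein alpha subunit of the Gq class, with log2 ratios of 5.55 and 5.86 and reads in 46.8% of NCs against 15.0% of the other cells, and *ITPR3*, an inositol trisphosphate receptor of the calcium store, with 2.00 and 3.55 and reads in 87.1% of NCs. *GNAQ* itself was at 0.98 and 2.07. *PLCB4*, a phospholipase C, was lower in both, with -2.19 and -1.18, whereas *PLCB1* was at 1.18 and -0.12. *ITPR2* was at -2.26 in the first matrix and -0.46 in the second.

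The Gi arm also held 15 genes in the comparison. Of these 3 were higher by 2-fold or more, 4 lower and 8 between, and in the second matrix 2 were higher and 5 lower, beside the same shares of all genes. The medians were -0.29 and, in the second matrix, -0.53, against 0.27 and 0.16 for all genes. The alpha subunits *GNAI1* (1.63 and 2.39) and *GNAZ* (2.27 and 2.87) were higher in both matrices. The most abundant, *GNAI2*, was detected in 96.5% of NCs and had log2 ratios of 0.80 and 0.24. The 3 of 15 genes that were lower in both, beside 7.64% of all genes, were adenylyl cyclases, the enzymes that Gi proteins inhibit, namely *ADCY2* (-1.21 and -2.30), *ADCY3* (-1.11 and -1.62) and *ADCY5* (-2.42 and -1.38). Other cyclases were not past 2-fold the same way in both, as *ADCY6* was at -0.75 and -0.43, *ADCY7* at -0.29 and -1.63, *ADCY8* at 2.18 and -0.30 and *ADCY9* at -1.23 and 0.50. The channel genes *KCNJ3* and *KCNJ5*, whose products open in the heart when the M2 receptor is active, were at 0.18 and -0.33 in the first matrix, with low levels of 0.70 and 0.26 rpm in NCs.

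Of 12 genes of receptor desensitization, 2 were higher by 2-fold or more, 5 lower and 5 between, and in the second matrix 2 were higher and 4 lower, beside 25.3% higher and 13.5% lower of all genes in the first and 23.1% and 18.2% in the second matrix. The median log2 ratios were -0.18 and, in the second matrix, -0.47. Those lower in both matrices were regulators of G protein signaling, *RGS16* (-4.27 and -2.48), *RGS2* (-1.94 and -1.28) and *RGS3* (-1.10 and -1.26). *RGS4* and *RGS5* were at 3.79 and 1.49 in the first matrix but at -1.19 and -0.37 in the second. *GRK2*, a kinase of active receptors, was at -1.22 and -0.98, and the arrestin genes *ARRB1* and *ARRB2* were at -0.02 and 0.60 in the first matrix and at 1.54 and 1.44 in the second, where they were the 2 genes higher by 2-fold. None of these 12 genes was higher by 2-fold in both matrices and 3 were lower, beside 12.9% and 7.64% of all genes.

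**Figure D5:**
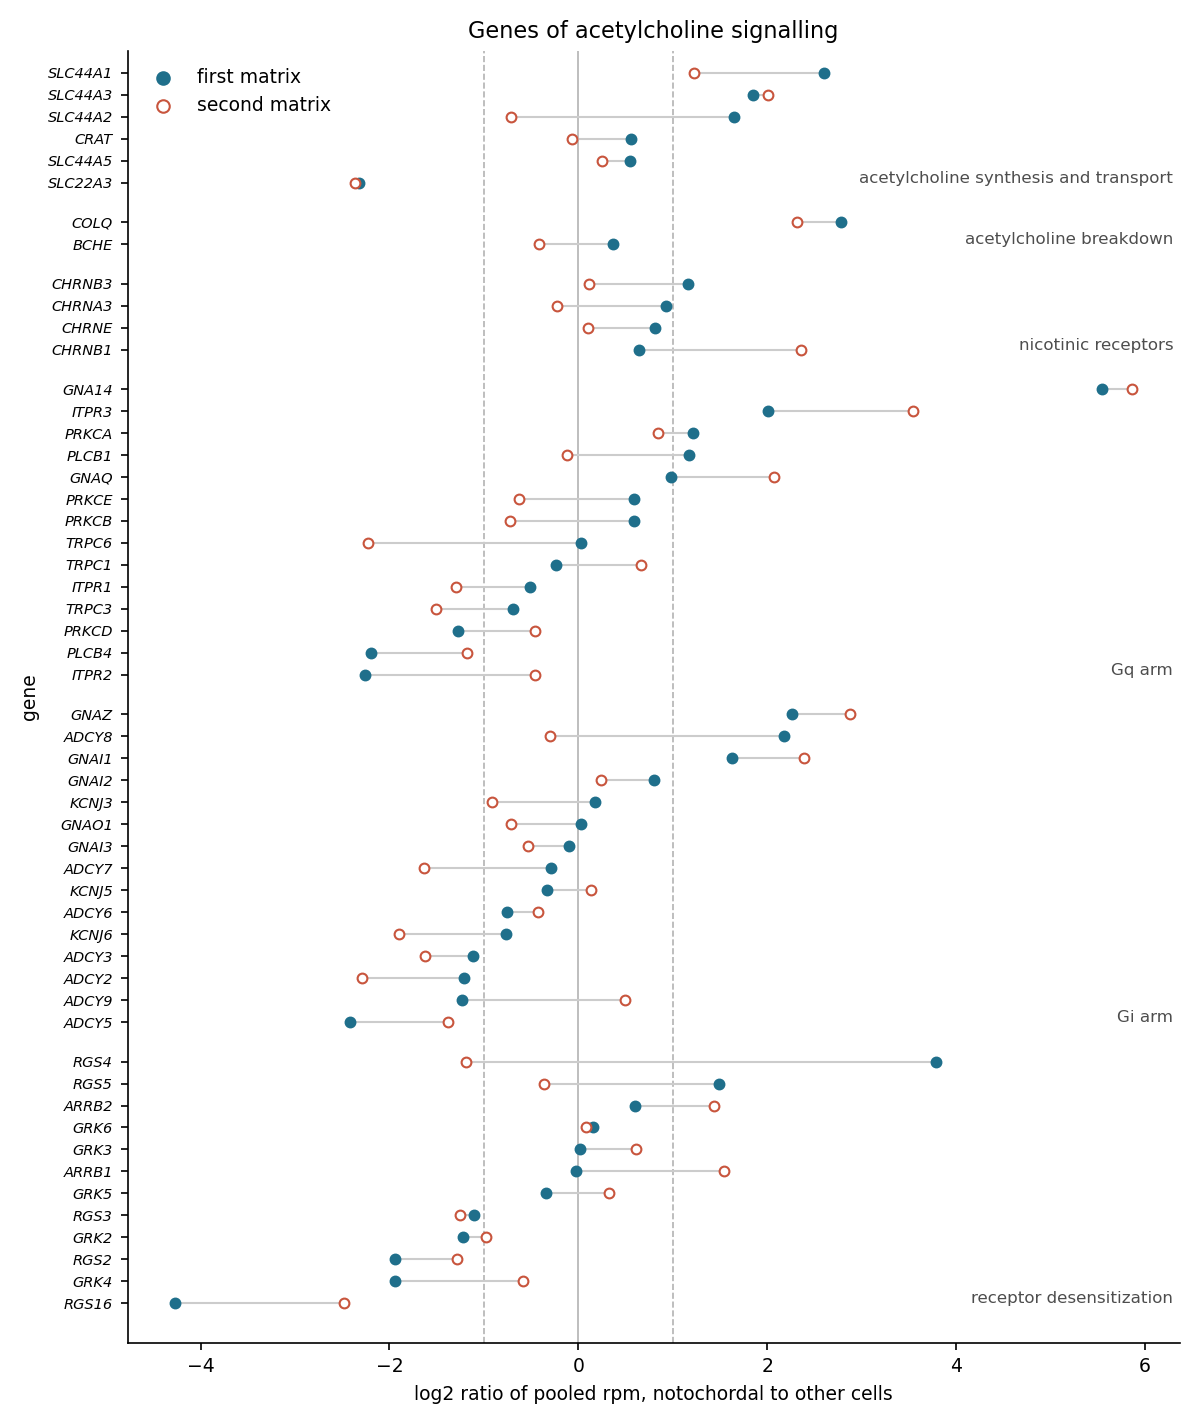
Log2 ratio of pooled rpm, notochordal to other cells (x axis), of the genes of acetylcholine signalling detected in at least 5% of either class (y axis), by list. Filled points are the first and open points the second matrix, the grey line joins a gene's values, and dashed lines mark 2-fold. Among the genes of the lists, which leave out *CHRM2* and *CHRM3*, *GNA14* has the highest values (5.55 and 5.86) and *RGS16* the lowest value (-4.27).

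NCs with and without a receptor were compared next, to see what else differed between them. Depth differed first. The 93 *CHRM2*-positive NCs had a median of 220598 reads and 4332 genes against 169657 and 3804 in the 217 negative NCs, and the 89 *CHRM3*-positive NCs had 198404 and 4261 against 172804 and 3904 in the 221 negative NCs. The part of depth in the differences below was not tested. The level of *TBXT* was close in all groups, at 837 rpm in NCs with neither receptor, 918 with *CHRM2* alone, 973 with *CHRM3* alone and 886 with both. *KRT19* was at 1001 rpm in NCs with neither and 1256 with both. Its correlation with *CHRM3* was 0.15 over 310 NCs and 0.07 over 138 NCs of the second matrix, and that of *TBXT* with *CHRM3* 0.07 and 0.06. For *CHRM2* the values were 0.04 and 0.06 with *KRT19*, and 0.02 and 0.11 with *TBXT*. All these correlations were weak.

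*SHH*, *ACTB*, *ACTG1* and *CA3*, which the study used to describe groups of NCs, partly from these cells, were compared between NCs with neither receptor and with both. *SHH*, the ligand sonic hedgehog, had reads in 58 of 153 NCs with neither receptor (37.9%, 30.2 to 46.1) and 7 of 25 with both (28.0%, 12.1 to 49.4). The order was opposite in the second matrix, with 6 of 56 (10.7%, 4.03 to 21.9) and 7 of 20 (35.0%, 15.4 to 59.2). *ACTB*, beta-actin, was at 8506 rpm in NCs with neither and 4809 rpm in NCs with both, and *ACTG1*, gamma-actin, at 9158 and 5373 rpm. The difference was smaller or opposite in the second matrix, where *ACTB* was at 7502 and 6807 rpm, and *ACTG1* at 4890 and 6381 rpm. *CA3*, a carbonic anhydrase, had reads in 16.3% of NCs with neither and 28.0% with both, and in 21.4% and 25% in the second matrix. Its level was 51.2 rpm with neither and 83.3 rpm with both, but 63.6 and 45.8 rpm in the second matrix. No pooled level of these 4 genes reached 2-fold between receptor-positive and receptor-negative NCs of the first matrix. The medians over cells differed more for *ACTB*, at 2482 rpm in *CHRM3*-positive and 5952 rpm in *CHRM3*-negative NCs, and 2748 and 5295 rpm in the second matrix. For *ACTG1* they were 3343 and 6516 rpm, but 3655 and 2881 rpm in the second matrix. By *CHRM2* the *ACTB* medians were 3024 rpm in positive and 5952 rpm in negative NCs, and 3877 and 4483 rpm in the second matrix.

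Marker lists of other cell states were summed as well, beside 7.74% of all genes that were higher by 2-fold and 8.84% lower by *CHRM2*, and 7.25% and 9.3% by *CHRM3*. The sum of 7 immediate early genes was 5076 rpm in *CHRM2*-positive and 3920 rpm in *CHRM2*-negative NCs. By *CHRM3* it was 5888 and 3601 rpm, and it was 3001 rpm with neither receptor. Most of the sum was *JUN*, at 3104 of 4314 rpm over all NCs, with log2 ratios of 0.49 by *CHRM2* and 0.90 by *CHRM3*. The median log2 ratio of the 7 genes was 0.11 by *CHRM2* and 0.004 by *CHRM3*. None of the 7 was higher by 2-fold for either receptor and *HES1* was lower by *CHRM3* (-1.004). The sum of 5 fibrocartilage genes was 330 rpm in *CHRM2*-positive and 158 rpm in *CHRM2*-negative NCs, with 2 of 5 higher by 2-fold, *IGFBP6* (2.24) and *SULF2* (2.37), whereas by *CHRM3* it was 268 and 194 rpm with 0 of 5 higher. The sum of 5 proliferation genes was 128 and 40.2 rpm by *CHRM2* but 38.5 and 84.7 rpm by *CHRM3*, and only 1 of the 5 was detected in 10% of a group, so few cells carry these sums. The sum of 6 chondrocyte matrix genes was close in all groups, at 17784 rpm in *CHRM2*-positive, 18966 rpm in *CHRM2*-negative and 18051 rpm in *CHRM3*-positive NCs and 19264 rpm with neither. Most of it was *ACAN*, at 12827 and 15276 rpm by *CHRM2*, and single genes differed more. *BGN* was at 0.93 by *CHRM2* and -0.90 by *CHRM3*, *COL2A1* at 0.37 and -0.93 and *DCN* at 0.61 and -0.58, whereas *SOX9* was at -0.46 and 0.20. Only *MGP*, 1 of 6, was higher by 2-fold by *CHRM2* (1.25). Its median over cells was 47.7 rpm in *CHRM2*-positive and 53.6 rpm in *CHRM2*-negative NCs, the opposite order. The part of these states in the receptor reads was not tested.

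The same comparison was made for all genes. Of 10176 genes detected in at least 10% of *CHRM2*-positive or *CHRM2*-negative NCs, 7.74% were higher in the positive cells by 2-fold or more and 8.84% were lower, with a median log2 ratio of 0.02. For *CHRM3* the shares were 7.25% and 9.3% of 10203 genes, with a median of -0.01. Among the pathway genes in the comparison, the Gq arm had 1 of 14 genes higher and 2 lower by *CHRM2* and 0 of 13 higher and 1 lower by *CHRM3*. *PLCB4* was among the lower ones for both receptors (-2.36 and -1.78). The Gi arm had 0 of 13 higher and 3 lower by *CHRM2*, and 2 of 13 higher and 4 lower by *CHRM3*. *ADCY8* went opposite ways, with -2.66 by *CHRM2* and 3.97 by *CHRM3*.

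Among genes detected in at least 25% of either group, the highest in *CHRM2*-positive NCs were *GDF10* (log2 ratio 3.65), *ELN* (elastin, 3.45), *CTHRC1* (3.28), *CILP2* (2.77) and *RGMA* (2.76), and the lowest were *AFG1L* (-3.41), *GTF2IRD1* (-2.97), *CXCL8* (interleukin-8, -2.85), *RUNX2* (-2.85) and *GLIS1* (-2.77). For *CHRM3* the highest were *PAX7* (3.39), *ENOX2* (3.06), *RAB15* (2.91), *FAM110B* (2.82) and *NOL4* (2.81), and the lowest *DLK1* (-4.42), *GDF10* (-3.14), *IL1RL1* (-3.11), *MVK* (-3.10) and *CRB1* (-3.08). For several of these genes 1 cell held most of the reads of the higher group. For *GDF10* the share of cells was 37.6% of *CHRM2*-positive and 35.9% of *CHRM2*-negative NCs, and 1 cell held 82.9% of the reads of the positive NCs. *PAX7* was detected in fewer *CHRM3*-positive (18.0%) than *CHRM3*-negative NCs (25.3%), and 1 cell held 94.1% of its reads in the positive NCs. Over the 10 genes of each receptor the median share of reads in 1 cell of the higher group was 47.8% for *CHRM2* and 54.5% for *CHRM3*. The shares ranged from 20.1% to 82.9% for *CHRM2* and from 21.8% to 94.1% for *CHRM3*. In the second matrix, 6 of the 10 genes of each receptor had the same sign and 3 of 10 also passed 2-fold. Of all genes past 2-fold and detected in 25% of a group, 50.2% of 622 by *CHRM2* and 46.2% of 584 by *CHRM3* had the same sign there, and 11.9% and 9.93% also passed 2-fold, so most differences did not recur. Of the named genes, *CXCL8* (-3.87) and *RGMA* (2.86) for *CHRM2*, and *PAX7* (3.06) and *GDF10* (-3.40) for *CHRM3*, were among those that did. Few cells had their reads there, with *CXCL8* in 1.85% of *CHRM2*-positive and 4.76% of *CHRM2*-negative NCs, and *RGMA* in 12.96% and 7.14%. *PAX7* was in 12.5% of *CHRM3*-positive and 3.33% of *CHRM3*-negative NCs, the opposite order to the first matrix. *GDF10* was in 12.5% and 6.67%, the opposite order to its level. Other named genes had the opposite sign in the second matrix, such as *GDF10* (-3.93) and *AFG1L* (1.21) for *CHRM2*, and *FAM110B* (-1.31) and *CRB1* (1.52) for *CHRM3*.

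The genes whose level was most like that of a receptor across NCs had weak correlations. For *CHRM2* they were *DIPK1A* (r = 0.27), *TAGAP* (0.26), *NCSTN* (0.26), *PLEKHM2* (0.24) and *GRIK5* (0.24) of 9727 genes detected in at least 10% of the 310 NCs. In the second matrix *GRIK5*, a glutamate receptor subunit, had r = 0.18 and *NCSTN*, a subunit of gamma-secretase, 0.17, but *DIPK1A* had 0.06, *PLEKHM2* -0.03 and *TAGAP* -0.05. For *CHRM3* they were *TMEM9B* (0.26), *LNPEP* (0.25), *RBBP9* (0.24), *MITD1* (0.23) and *EFEMP1* (0.23). There *EFEMP1*, a protein of the extracellular matrix, had 0.15 and *LNPEP* 0.10 in the second matrix, whereas *TMEM9B*, *RBBP9* and *MITD1* had -0.01, -0.09 and -0.03.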

How the data were processed

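TAS-seq libraries of pooled NP and AC cells were used. The authors used HISAT2 2.2.1 for alignment and featureCounts 2.0.2 for stranded assignment to whole genes, introns included. Multi-mapping and overlapping reads were allowed. The deposited values are raw read counts for each gene in each cell. The build is not given in the sources used here. The tag library holds no gene expression, and 49 columns of doublets or untagged cells were not used. Reads were pooled per class as rpm. In ratios, a class with fewer than 3 reads was set to 3 reads. A gene past 2-fold was counted among genes detected in 1% (NCs to other cells) or 10% (receptor-positive to receptor-negative NCs) of a class. Named genes were all 6 members, the 5 highest by Pearson's r for each receptor, the 5 largest log2 ratios each way among genes in 25% of a class, and list genes in 5% of a class, with exceptions stated where they are named. Clusters of the first matrix alone, with cell cycle scores regressed, were made in Seurat 5.3.0 (R 4.3.3) at resolution 0.27 on 30 principal components of 5000 variable genes, scaled to 1000000 reads, and named where the scaled marker mean was at least 1. All else used scipy 1.17.1, numpy 2.4.6 and pandas 2.3.3 under Python 3.11.15, and the calculations were tested on simulated data. There is 1 library, so no p-value is given. The members and lists were chosen with earlier results of these data known.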

Additional observations from a re-analysis of the deposited data

How the results depend on the processing

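The data are read counts of 1 library per matrix, so they limit statements to these cells. A count of 0 in 310 NCs allows a share of up to 0.968% of cells with a read (3 counts), and sets no limit on expression below detection. Of 85 values under alternatives for 8 results, 52 stayed within the interval of the value or within 1.5 times the count, 32 moved and 1 reversed. The *CHRM2* and *CHRM3* shares were 24.0% and 22.1% of cells with at least 1 read of both markers and 21.9% and 21.3% with detection from 5 reads, and their co-detection was 2.90% with detection from 5 reads and 4.51% expected at 50000 reads. Leaving out each tag gave 29.5% to 30.9% for *CHRM2*, 27.0% to 29.2% for *CHRM3* and 6.76% to 8.64% for both. The log2 ratio of *CHRM2* was 7.68 with 1 read and 6.96 with 10 reads of both markers, 9.94 with 5 reads of either, 10.3 by cluster and 6.36 from mean rpm over cells. That of *CHRM3* was 7.03 with 1 read of both markers, 10.95 with 5 reads of either, 11.2 by cluster and 6.99 from mean rpm. That of *ACHE* was 1.36 with 1 read of both markers and 4.50 from mean rpm. The differences of mean log2(rpm + 1) were 1.81, 1.76 and 0.054 for the 3 genes, on a scale that compresses low levels. Without each tag the ratios ranged from 6.59 to 10.1 for *CHRM2*, the highest without A952, from 7.01 to 8.98 for *CHRM3*, the highest without A951, and from -0.076 to 2.50 for *ACHE*, the lowest without A952, where its NC reads of 0 were set to 3. Genes past 2-fold numbered 5320 between NCs and other cells and 8842 with no filter but 1 read, and 1689 by *CHRM3* and 4730 with no such filter. Without each tag they numbered 5410 to 6554 and 1701 to 4700, the highest without A952, which leaves 74 NCs. Requiring 3 reads in the class called higher, an alternative chosen after seeing the data, changed neither count. The causes of these shifts were not tested. No paired analysis was possible because the labels give 1 library of gene expression and no source used here pairs its tags with the tissue samples.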
